A study of Mus musculus with 21 samples.

Results

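Whole-liver RNA from mice given carbon tetrachloride (CCl4), a hepatotoxin that causes repeated centrilobular injury and scarring, was compared between 3 libraries labelled Sting knockout and 3 wild-type libraries. Described here are the protein-coding genes that averaged 1 FPKM or more over these 6 libraries. FPKM are fragments per kilobase of gene, scaled by a size for each library. These genes were 10643 of the 22046 coding genes listed, and of 54532 genes of any kind. Just inside that limit lay 220 coding genes with a mean of 1 to 1.1 FPKM, and just outside it 246 with a mean of 0.9 to 1 FPKM. The labels give every CCl4 mouse 6 weeks of intraperitoneal CCl4, whereas the series' design text gives 8 weeks. A group of 3 more wild-type livers, injected with oil for the same 6 weeks, shared the fit and serves as the uninjured background. Oil-treated knockout livers were not analysed here, so every difference is between injured livers. The labels name no strain, sex, age, allele or exon of the Sting knockout, and do not say that the libraries of a group came from separate mice, so p-values describe library-to-library spread, part of which may be technical. Wild-type library 3 differs from the rest of its group in sex-linked RNA, given below, and so did not share a mouse with them if the libraries are as labelled. The series as a whole holds 21 libraries in 7 groups of 3.

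STING, encoded by Sting1, is an adaptor on the endoplasmic reticulum. The enzyme cGAS binds DNA in the cytosol and makes the cyclic dinucleotide cGAMP, which activates STING, and STING then recruits the kinase TBK1 to switch on the transcription factor IRF3, type I interferon and NF-kB. In the liver the protein is known mainly from Kupffer cells and other non-parenchymal cells, and by its title the study addresses hepatocyte pyroptosis, the lytic death that caspases and gasdermins carry out downstream of inflammasomes such as NLRP3. In bulk liver, fewer cells of a type and less RNA per cell cannot be told apart.

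The targeted gene was examined first. Sting1 (ENSMUSG00000024349, listed as Tmem173; chromosome 18, 35733678 to 35740554, mm10) was at 6.10, 5.15 and 4.74 FPKM in wild-type libraries 1, 2 and 3, and at 3.42, 1.98 and 5.28 FPKM in the knockout-labelled libraries 1, 2 and 3. These levels stood on 255, 226 and 203 reads against 136, 59 and 235 reads. Knockout-labelled library 3 thus lay above 2 of the wild-type libraries, and the groups overlapped. The oil livers had a mean of 1.19 FPKM, so all 6 CCl4 libraries exceeded the uninjured mean. The difference of means was -1.77 FPKM, for which an exact two-sided permutation test gave p = 0.3, where 0.1 is the smallest p that 3 against 3 allows. On the log2(FPKM + 1) scale, on which all fits below were made, it was -0.53 (95% interval -1.11 to 0.04; limma, adjusted p = 0.758). Reads counted over a whole gene do not show whether a deleted or altered exon is among them. The knockout-labelled libraries also bear the names SWT3, SWT4 and SWT5 in their titles and in the deposited table, and no label read here explains these names. Since the level does not follow the label in every library, the group is called "knockout-labelled" throughout.

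The libraries differed among themselves more than by label. Reads recovered from the deposited values ranged from 15719644 to 16659576 per library, so depth was nearly even. The library size that scaled the deposited FPKM was less even. It was 0.823 times the reads recovered in knockout-labelled library 2 and 1.22 times in knockout-labelled library 3, the others lying between. Label accounted for 18.8% of the sum of squares over coding genes. Any split of these libraries into equal groups also accounts for a share, so this value alone shows no effect of label. Wild-type library 2 resembled knockout-labelled libraries 1 and 3 (Pearson r across coding genes 0.980 and 0.981, with 160 and 142 genes over 2-fold apart) more than it resembled wild-type library 1 (0.950, 545 genes) or wild-type library 3 (0.913, 1087 genes). Knockout-labelled library 2 stood apart on the first principal component, which held 48.6% of the variance, and differed from knockout-labelled library 3 by over 2-fold in 1995 genes. Its levels also followed gene length. Against the mean of the other 5 libraries its median log2 difference was 0.74 in the shortest of 5 equal length classes of coding genes (up to 2319 bases) and -0.48 in the longest (from 7132 bases), with r = -0.553 across 10643 genes, which are not independent replicates. The other 5 libraries gave r between -0.045 and 0.326, each against a mean that includes knockout-labelled library 2, so these values are not free of its trend. Wild-type library 3 stood apart on the second component and held 79.9 FPKM of Xist, the RNA that coats the inactive X chromosome, against at most 0.0129 FPKM in the other libraries. The Y-linked helicase gene Ddx3y was at 0.0414 FPKM there and at 8.76 FPKM or more elsewhere, and Kdm5d, Eif2s3y and Uty were at 0, so its RNA has the pattern of a female mouse among libraries with a male pattern.

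**Figure D1:**
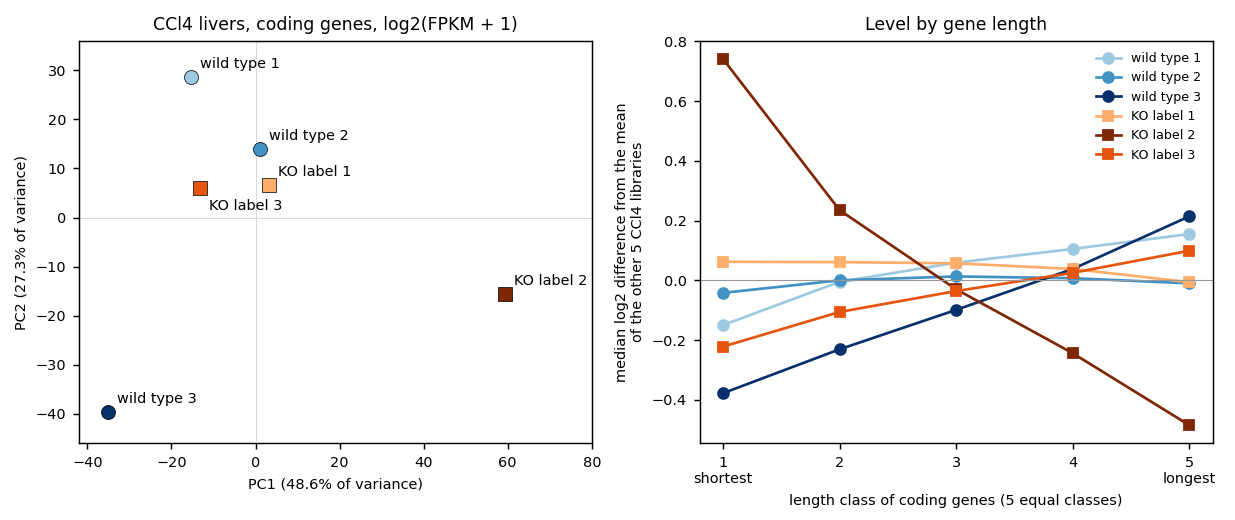
Left, the 6 CCl4 libraries (circles, wild type; squares, Sting knockout label) on the first and second principal components of log2(FPKM + 1) over coding genes; the axes carry 48.6% and 27.3% of the variance. Right, each library's median log2 difference from the mean of the other 5 in 5 equal classes of coding genes by gene length; knockout-labelled library 2 runs from 0.74 in the shortest to -0.48 in the longest class.

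No gene passed the test in either direction. Of 11687 genes of any kind fitted with limma, 0 had an adjusted p under 0.05 (0% called), and the smallest adjusted p was 0.582. At an unadjusted p under 0.05 there were 379 genes (3.24%), of which 278 were coding, 128 higher (1.2%) and 150 lower (1.41%) in the knockout-labelled libraries. The 3 libraries of each label did not overlap for 510 coding genes (4.79%), 217 of them higher (2.04%) and 293 lower (2.75%). For any gene without ties, a share of 0.1 of the 20 possible splits into 3 and 3 leaves the groups without overlap. Precision bounds what could have been seen: the median 95% interval of a coding gene reached 0.57 log2 units to either side, and for 7469 coding genes (70.2%) the interval lay wholly inside a 2-fold change on this scale, which understates the change of genes near 1 FPKM. For the remaining genes a 2-fold difference was not excluded by the interval. The estimated difference exceeded 1 log2 unit for 91 coding genes, 49 higher and 42 lower. The median difference was 0.009 over coding genes and 0.019 over all genes. Scaling every library to the same sum of FPKM moved the latter to -0.214, a shift against which the group medians below should be read.

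**Figure D2:**
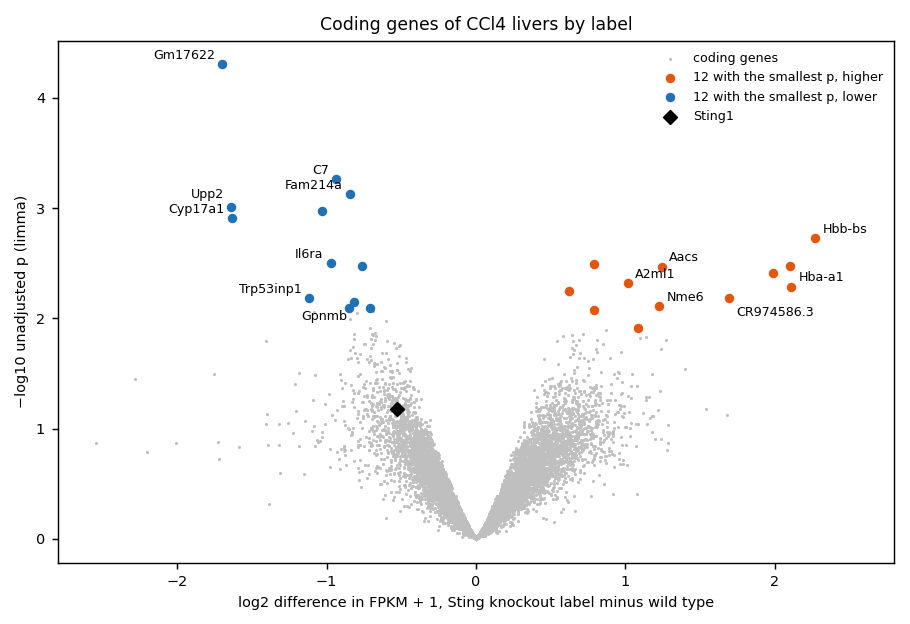
Each grey point is 1 of 10643 coding genes, with its log2 difference in FPKM + 1 (knockout label minus wild type) on the horizontal axis and the negative log10 of its unadjusted limma p on the vertical axis. Coloured points are the 12 genes with the smallest p in each direction whose groups do not overlap, and the diamond is Sting1 at -0.53; none had an adjusted p under 0.05.

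The coding genes described next are the 12 with the smallest p in each direction among those whose groups did not overlap. All 24 missed the threshold (limma, adjusted p = 0.582 for Gm17622 and 0.758 for the others), so they are given as levels. Among the lower genes, Upp2, Cyp17a1 and Ugt1a7c encode metabolic enzymes. Upp2, a liver uridine phosphorylase that breaks uridine down, was at 22.3, 9.70 and 13.8 FPKM across the wild-type libraries and at 3.52, 6.81 and 2.44 FPKM in the knockout-labelled libraries. Its mean was 3.58-fold lower in the knockout-labelled libraries, with a log2 difference of -1.64 (95% interval -2.45 to -0.83), while oil livers stood at 17.6 to 29.3 FPKM. Cyp17a1, the steroid 17-alpha-hydroxylase, was at 14.3, 4.57 and 11.5 FPKM against 3.72, 2.46 and 1.17 FPKM, a log2 difference of -1.63 (-2.46 to -0.81). For Cyp17a1, knockout-labelled library 3 lay in the range of the oil livers (1.17 to 1.60 FPKM) and the other knockout-labelled libraries above it. For Upp2, wild-type library 1 lay in the oil range and the other wild-type libraries below it. Ugt1a7c, a glucuronosyltransferase, was at 2.10, 2.04 and 1.40 FPKM against 0.453, 0.0366 and 0.772 FPKM. It is 1 of several Ugt1a genes that share their downstream exons, so its reads are uncertain.

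The other lower genes were of mixed roles. Il6ra, the receptor chain through which hepatocytes bind interleukin-6, was at 7.005, 5.41 and 6.48 FPKM across the wild-type libraries and 3.63, 2.17 and 2.46 FPKM in the knockout-labelled libraries, a log2 difference of -0.97 (-1.54 to -0.41), with oil livers at 3.39 to 7.23 FPKM. C7, a component of the complement attack complex, was at 1.69, 1.80 and 1.93 FPKM against 0.736, 0.347 and 0.348 FPKM, and its mean was 3.79-fold lower. Trp53inp1, a p53-induced stress gene, was at 33.2, 17.7 and 20.7 FPKM against 13.6, 6.25 and 11.7 FPKM. The wild-type libraries were thus the higher group for each of these, and the nearest libraries of the 2 labels were 17.7 and 13.6 FPKM for Trp53inp1. Gpnmb, a glycoprotein of scar-associated macrophages that is nearly absent from uninjured liver (at most 0.0575 FPKM in oil), was at 27.1, 30.6 and 27.0 FPKM against 12.5, 12.6 and 23.7 FPKM. Cxcr4, the chemokine receptor for CXCL12, was at 5.02, 4.20 and 6.04 FPKM against 2.66, 1.88 and 3.80 FPKM. Fam214a was at 6.44, 5.40 and 6.82 FPKM against 2.79, 2.81 and 3.44 FPKM, and N4bp2l1 at 6.78, 7.59 and 5.50 FPKM against 3.51, 4.16 and 2.82 FPKM. H2-M2, a class I histocompatibility gene whose family members are alike enough to make its reads uncertain, was at 2.59, 0.743 and 1.49 FPKM against 0.486, 0.199 and 0.50 FPKM. The gene with the smallest p of all, Gm17622, is 45 bases long and its 2.45, 1.17 and 3.59 FPKM across the wild-type libraries were 2, 1 and 3 reads, with 0 reads in the other libraries, so its place rests on 6 reads.

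Among the higher genes, haemoglobin genes led. Hbb-bs, an adult beta-globin gene, was at 557, 241 and 157 FPKM in the libraries of wild-type mice and at 1130, 1770 and 1194 FPKM in the knockout-labelled libraries, a 4.29-fold higher mean and a log2 difference of 2.27 (95% interval 1.05 to 3.49). Hbb-bt was at 74.99, 26.2 and 15.8 FPKM against 134, 145 and 137 FPKM. The alpha-globin genes had the same order of groups: Hba-a1 was at 393, 130 and 67.0 FPKM against 535, 905 and 579 FPKM, and Hba-a2 at 41.7, 18.5 and 19.9 FPKM against 55.1, 195 and 98.3 FPKM. Each globin pair is nearly identical in sequence, so the split of reads between its members is uncertain. In every case wild-type library 1 was the closest to the knockout-labelled libraries. Oil livers, from 154 to 500 FPKM of Hbb-bs, lay within or near the wild-type range.

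Aacs, the cytosolic acetoacetyl-CoA synthetase that returns ketone bodies to lipid synthesis, was the leading metabolic gene on the higher side, at 9.22, 11.3 and 8.58 FPKM across the wild-type libraries and 28.1, 22.7 and 22.3 FPKM in the knockout-labelled libraries. Its mean was 2.51-fold higher, with a log2 difference of 1.24 (0.51 to 1.98), and the knockout-labelled libraries lay inside the range of the oil livers (15.4 to 42.2 FPKM). Nme6, a mitochondrial nucleoside diphosphate kinase, was at 5.14, 14.8 and 9.53 FPKM against 20.5, 34.2 and 16.2 FPKM. A2ml1, an alpha-2-macroglobulin-like protease inhibitor, was at 1.62, 2.00 and 1.59 FPKM against 2.92, 7.95 and 3.82 FPKM. Knockout-labelled library 2 was the highest for both, and for 10 of the 12 higher genes.

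The remaining higher genes were low or of less certain role. Fst, which encodes the activin antagonist follistatin, was at 1.27, 2.30 and 1.04 FPKM against 3.65, 4.09 and 2.34 FPKM, so the nearest libraries of the 2 labels were 2.30 and 2.34 FPKM. Mphosph6, a cofactor of the RNA exosome, was at 1.00, 1.59 and 1.39 FPKM against 2.2, 2.81 and 2.69 FPKM. Keg1 was at 4.50, 10.8 and 10.7 FPKM against 14.4, 27.2 and 15.7 FPKM and 5830473C10Rik at 6.33, 4.69 and 6.47 FPKM against 9.75, 13.1 and 9.69 FPKM, both below their oil levels of 34.8 to 55.8 and 17.2 to 17.97 FPKM. CR974586.3 had 1.94, 2.69 and 0 FPKM against 3.16, 7.68 and 9.11 FPKM, on at most 55 reads.

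**Figure D3:**
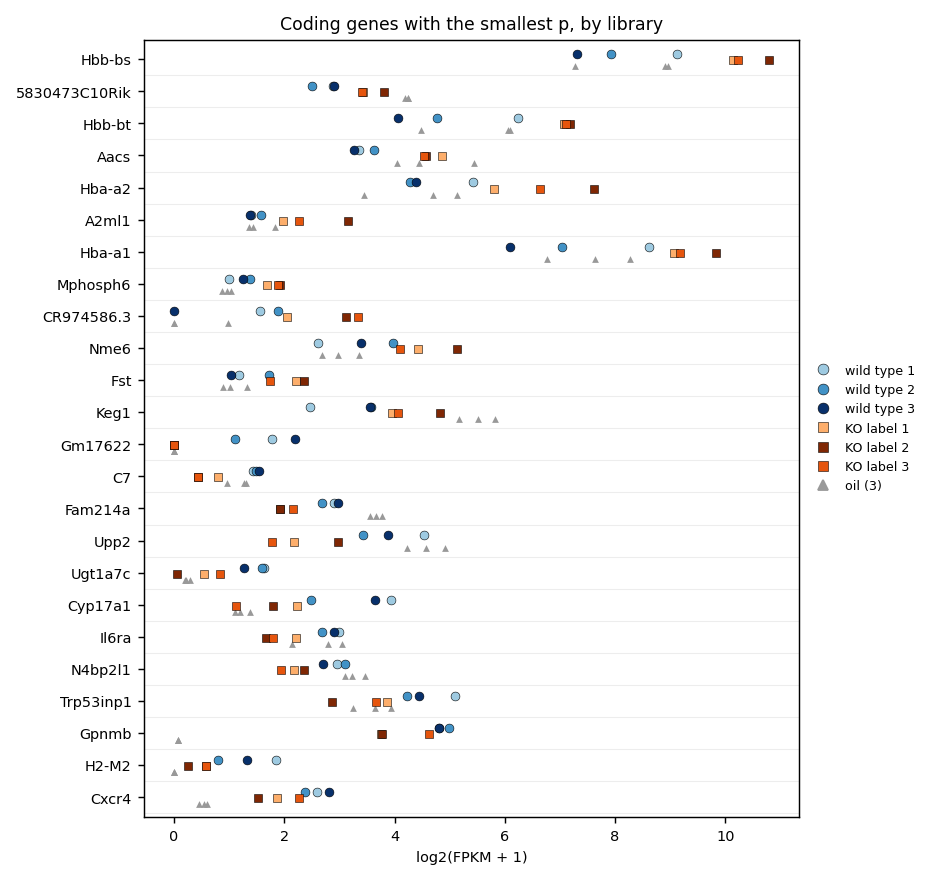
Level of each of the 24 coding genes with the smallest p (rows; the first 12 higher and the last 12 lower in the knockout-labelled libraries) as log2(FPKM + 1) in every library: blue circles, wild-type CCl4; orange to brown squares, knockout label; grey triangles, oil. In each row the circles and squares do not overlap, as the choice of genes requires.

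Genes of the cGAS-STING pathway, Sting1 among them, did not share a direction. Of 20 listed, 17 reached 1 FPKM, 0 were called, 10 were higher and 7 lower, 0 had groups that did not overlap (4.79% of coding genes did), and their median log2 difference was 0.18 against 0.009 over coding genes, falling to 0.02 without knockout-labelled library 2 and turning to -0.04 when libraries were scaled to equal sums. The kinase gene Tbk1 was at 10.4, 6.90 and 8.38 FPKM across the wild-type libraries and 6.82, 4.55 and 7.17 FPKM in the knockout-labelled libraries (log2 difference -0.42, 95% interval -0.92 to 0.08). Irf3, the transcription factor it phosphorylates, was at 11.4, 12.7 and 6.50 FPKM against 13.5, 20.2 and 10.6 FPKM. Neither gene separated the labels. Samhd1, a nucleotide hydrolase that limits DNA in the cytosol, was at 18.3 FPKM in wild-type library 1 and between 4.14 and 6.97 FPKM in the other 5. The ribonuclease H2 subunit gene Rnaseh2a had the smallest p of the list, at 4.41, 5.66 and 4.26 FPKM against 6.99, 12.4 and 5.61 FPKM (log2 difference 0.63, 95% interval 0.06 to 1.21; limma, adjusted p = 0.758), its highest value in knockout-labelled library 2. Rnaseh2c ranged from 4.44 FPKM in wild-type library 3 to 47.9 FPKM in knockout-labelled library 2. Cgas itself lay below 1 FPKM on average, at 0.854, 0.864 and 1.28 FPKM against 0.800, 0.206 and 1.20 FPKM. Of the others, Ikbke, Rnaseh2b, Dnase2a, Nlrx1, Ddx41, Hmgb1 and Banf1 had positive differences, from 0.13 for Banf1 to 0.37 for Ddx41, and Enpp1, Ifi204, Tollip and Usp18 negative ones, from -0.47 for Ifi204 to -0.08 for Usp18, every interval including 0.

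Inflammasome and pyroptosis genes were mostly a little lower in the knockout-labelled libraries, with overlapping groups throughout. Of 26 listed, 20 reached 1 FPKM, 0 were called, 16 were lower and 4 higher. The median log2 difference was -0.21, which was -0.46 without wild-type library 2 and -0.13 and -0.12 without wild-type libraries 1 and 3. It was -0.03 with weights per library. That fit weighted knockout-labelled library 1 at 0.0317, against 0.359 to 3.25 for the other CCl4 libraries. Casp1, the caspase that cleaves pro-interleukin-1-beta and gasdermin D, was at 10.2, 6.37 and 10.5 FPKM across the wild-type libraries and 5.19, 7.64 and 4.97 FPKM in the knockout-labelled libraries (log2 difference -0.52, 95% interval -1.07 to 0.03). Gsdmd, the pore-forming gasdermin, was at 21.9, 16.8 and 10.1 FPKM against 13.8, 26.0 and 15.0 FPKM (0.16, -0.56 to 0.88). For both, values of 1 label were interleaved with those of the other.

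The sensor and cytokine genes overlapped between labels too. Nlrp3, the sensor the study names, averaged under 1 FPKM and was at 1.79, 0.685 and 0.822 FPKM across the wild-type libraries and 1.19, 0.133 and 0.879 FPKM in the knockout-labelled libraries. Pycard, the adaptor ASC, was at 1.84, 1.48 and 1.95 FPKM against 1.49, 2.30 and 1.59 FPKM (0.01, -0.42 to 0.45), an interval that lies inside a 2-fold change. P2rx7, the ATP-gated channel that triggers NLRP3, was at 3.48, 1.91 and 2.66 FPKM against 1.94, 1.48 and 1.75 FPKM (-0.42, -0.86 to 0.03), overlapping by the single pair of 1.91 and 1.94 FPKM. Il1b was at 6.38, 2.23 and 4.34 FPKM against 3.80, 2.84 and 3.50 FPKM, and Il18 at 14.1, 8.49 and 17.0 FPKM against 5.68, 19.3 and 8.63 FPKM. Among the rest, Naip5 (-0.41), Mefv (-0.40), Il18bp (-0.38), Aim2 (-0.30), Il1a (-0.30), Txnip (-0.24), Nek7 (-0.21), Naip2 (-0.18), Casp4 (-0.14), Nlrp6 (-0.13), Casp8 (-0.10) and Il1rn (-0.08) had negative log2 differences, and Ninj1, which ruptures the membrane of dying cells, (0.41) and Nlrp12 (0.01) positive ones. Each of these intervals included 0. Kupffer cells, the resident macrophages, express many of these genes, and their markers also had a negative median (-0.24), and their part in the result was not tested.

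**Figure D4:**
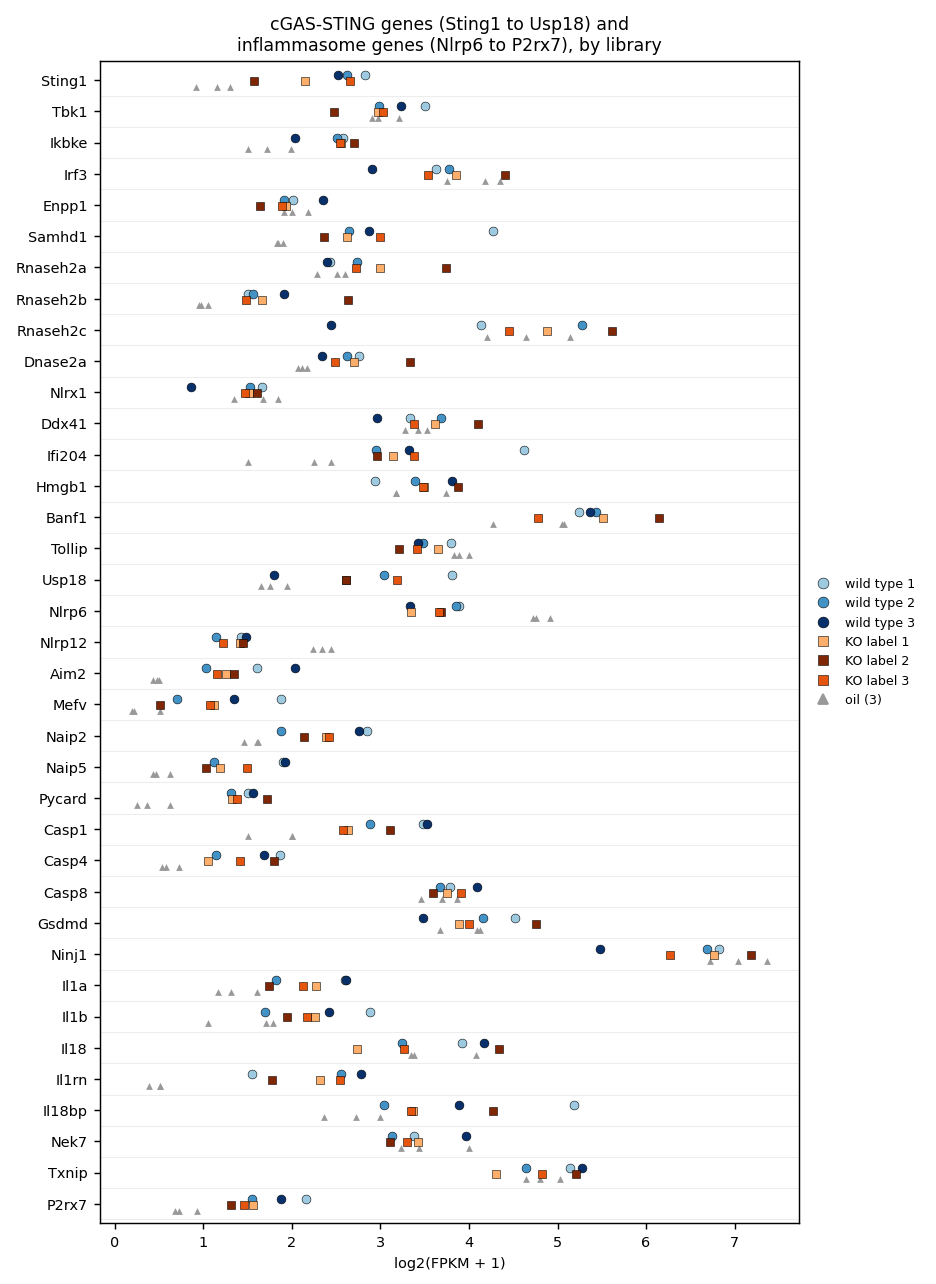
Level of the 17 cGAS-STING genes and 20 inflammasome and pyroptosis genes averaging 1 FPKM or more, as log2(FPKM + 1) in every library: blue circles, wild-type CCl4; orange to brown squares, knockout label; grey triangles, oil. In every row the circles and squares overlap in range.

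Interferon-stimulated genes, which carry out the antiviral programme downstream of IRF3 and of the interferon receptors, had a lower median in the knockout-labelled libraries that rested on 1 wild-type library. Of 42 listed, 39 reached 1 FPKM, 0 were called, 31 were lower and 8 higher, and 0 had groups that did not overlap (beside 4.79% of all coding genes). Their median log2 difference was -0.39, and it was 0.21 without wild-type library 1 and -0.65 without wild-type library 3. Wild-type library 1 held the highest level of 35 of the 39, against 23.5% of all coding genes. Ifit2, an interferon-induced RNA-binding protein, was at 25.6 FPKM there and at 2.70 and 4.30 FPKM in the other wild-type libraries, and at 3.17, 1.26 and 4.095 FPKM in the knockout-labelled libraries. Herc6, Parp14 and Ddx60, the other members with the smallest p, were at 3.02, 20.1 and 3.45 FPKM in wild-type library 1, above the ranges of 0.873 to 1.58, 3.24 to 8.45 and 0.418 to 1.69 FPKM in the other 5.

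Many such genes carry an interferon-stimulated response element, the site bound by the interferon-activated factor ISGF3 and by interferon regulatory factors, and the promoters of some that were highest in wild-type library 1 are shown to let the element be seen beside the levels. The element's core was searched as GAAA, any 2 bases and GAAA again on both strands (TTTC, any 2 bases and TTTC on the reverse) in the 250 bases before each RefSeq gene start on GRCm38.p6, the mm10 build. It was present for 16 of the 30 listed genes with a promoter sequence (53.3%), against 3.46% of the 27025 genes with one. A match is a description of letters and not a shown site. Capitals mark the matches, which overlap one another in Isg15 and Gbp3, and each sequence reads 5′ to 3′ on the strand of its gene.
Isg15 (chr4:156200850-156200921, minus strand): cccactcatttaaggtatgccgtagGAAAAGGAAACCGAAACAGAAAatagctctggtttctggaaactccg
Ifit3 (chr19:34583348-34583441, plus strand): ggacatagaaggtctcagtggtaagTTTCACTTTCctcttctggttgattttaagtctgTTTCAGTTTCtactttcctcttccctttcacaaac
Gbp3 (chr3:142559974-142560039, plus strand): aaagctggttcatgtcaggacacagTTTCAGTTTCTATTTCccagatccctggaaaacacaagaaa
Oas3 (chr5:120777700-120777759, minus strand): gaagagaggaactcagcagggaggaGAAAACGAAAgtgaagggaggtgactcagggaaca
Igtp (chr11:58199497-58199555, plus strand): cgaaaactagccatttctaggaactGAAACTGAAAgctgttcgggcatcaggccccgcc

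These 5 genes, chosen after their values were seen, share the pattern of wild-type library 1 to different degrees. Igtp, an interferon-gamma-inducible GTPase, was at 179 FPKM there, against 21.2 and 13.6 FPKM in the other wild-type libraries and 16.1, 23.5 and 19.8 FPKM in the knockout-labelled libraries. Oas3, an oligoadenylate synthetase, was at 9.02 FPKM there and between 0.405 and 1.148 FPKM in the other 5. Gbp3, a guanylate-binding protein, was at 26.8 FPKM there and between 4.096 and 5.56 FPKM elsewhere among the CCl4 livers. Ifit3, whose near-identical copy Ifit3b makes its reads uncertain, was at 45.8 FPKM there and between 6.13 and 14.1 FPKM in the other 5. Isg15, a ubiquitin-like protein attached to other proteins after interferon, was at 59.0, 32.2 and 9.82 FPKM across the wild-type libraries and 34.3, 19.4 and 35.9 FPKM in the knockout-labelled libraries. For Isg15 the other 5 libraries were themselves spread from 9.82 to 35.9 FPKM.

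Some other immune lists were also highest in wild-type library 1, which held the top level of 11 of 14 interferon receptor and signalling genes and of 7 of 9 class II and dendritic cell genes. This did not extend to B cell and plasma cell genes (2 of 6 tested highest there, median 0.04). Interferon receptors and signalling genes had a median of -0.28, which was 0.02 without wild-type library 1, with 14 tested, 0 called, 12 lower and 2 higher. Irf8, a macrophage and dendritic cell transcription factor, was at 11.6, 4.64 and 3.63 FPKM against 4.12, 2.73 and 4.19 FPKM. Antigen-presentation genes of the major histocompatibility class II and dendritic cells were lower for 9 of 9 tested, 0 called, with a median of -0.38 that was 0.03 without wild-type library 1. H2-Aa was at 103, 34.8 and 63.8 FPKM against 34.9, 48.3 and 31.0 FPKM, and its class II relatives make its reads uncertain. Markers of T and NK cells shared the peak in wild-type library 1, though only 4 of the 20 listed averaged 1 FPKM or more. The 20 listed summed to 61.8, 10.2 and 16.2 FPKM across the wild-type libraries and to 12.5, 38.2 and 10.9 FPKM in the knockout-labelled libraries. Cd3e, the defining marker, was at 0.526 FPKM in wild-type library 1 and at most 0.265 FPKM in the other 5. In knockout-labelled library 2 the 4 tested markers had a mean log2 level of 0.65 relative to the mean of the CCl4 libraries. Interferon receptor and signalling genes were at -0.33 there, and class II and dendritic cell genes at 0.18. The granule protease gene Gzmb was at 8.12 FPKM in wild-type library 1 and at most 0.888 FPKM in the other 5. The part of these cells in the interferon pattern was not tested.

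Fibrosis was examined through its matrix and the cells that make it. Of 31 collagen and scar matrix genes tested, 0 were called, 21 were lower and 10 higher, and the median log2 difference of -0.10 was 0.10 without knockout-labelled library 2 and -0.30 without knockout-labelled library 3. The listed genes summed to 732, 917 and 827 FPKM across the wild-type libraries, to 659, 673 and 1028 FPKM in the knockout-labelled libraries, and to at most 293 FPKM in oil livers. The scar programme was thus well above the oil livers in both labels, and the labels overlapped. Col14a1, a fibril-associated collagen, was the only tested member whose groups did not overlap, at 21.9, 16.6 and 19.95 FPKM against 12.9, 11.7 and 15.3 FPKM (log2 difference -0.52, 95% interval -0.98 to -0.06; limma, adjusted p = 0.758). Of all coding genes, 4.79% were without overlap. Thbs2, Lamc1 and Postn followed it in p, with log2 differences of -0.46, -0.56 and -0.49 and intervals that included 0.

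Matrix-remodelling and TGF-beta genes had a median of -0.18, with 30 tested, 0 called, 21 lower and 9 higher. The median was -0.40 without knockout-labelled library 3, -0.04 without either of the other knockout-labelled libraries and -0.11 without wild-type library 2. It was 0.04 with weights per library, of which knockout-labelled library 1 had the smallest. Mmp13, the interstitial collagenase of mouse liver, was at 2.49, 3.31 and 3.26 FPKM against 1.65, 1.33 and 2.30 FPKM (log2 difference -0.55, 95% interval -0.98 to -0.12; limma, adjusted p = 0.758). It was the only tested member without overlap, beside 4.79% of all coding genes. Stellate cells, the vitamin A-storing pericytes that become scar-forming myofibroblasts, gave 10 lower and 5 higher of 15 tested, 0 called, with a median of -0.15 that was -0.03 without wild-type library 1, -0.09 without wild-type library 2 and -0.26 without wild-type library 3. Lrat, the retinol esterase that defines quiescent stellate cells, was at 5.71, 4.78 and 11.1 FPKM against 4.53, 3.16 and 4.097 FPKM, and Bmp5 at 2.13, 1.59 and 2.39 FPKM against 1.20, 0.269 and 1.29 FPKM. For both genes the knockout-labelled libraries were the lower group without overlap (2.75% of all coding genes were lower in that manner). Pdgfra, a growth factor receptor of fibroblasts, overlapped by 1 library (3.72, 3.07 and 3.36 FPKM against 1.69, 1.31 and 3.41 FPKM).

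Macrophage genes were read as 2 lists, whose difference was not tested. Recruited macrophage and monocyte genes had a median of -0.02 (-0.10 without wild-type library 1), with 21 tested, 0 called, 12 lower and 9 higher. Gpnmb, described above, was the only member without overlap, beside 4.79% of all coding genes. Adgre1, which encodes the F4/80 antigen, was at 60.03, 20.6 and 43.6 FPKM against 27.8, 14.8 and 24.1 FPKM. Kupffer cell genes were lower for 12 of 15, 0 called, with a median of -0.24 that was 0.09 without wild-type library 1. Cd163, a scavenger receptor for haemoglobin, was at 16.3 FPKM in wild-type library 1 and between 2.28 and 5.40 FPKM in the other 5. Among chemokine and NF-kB genes (23 tested, 0 called, 18 lower, median -0.22, and 0.06 without wild-type library 1), Ccl6, a macrophage chemokine, did not overlap, at 113, 48.6 and 63.3 FPKM against 46.8, 33.5 and 44.6 FPKM. Vcam1, the adhesion molecule that holds leukocytes to endothelium, was at 16.1, 5.60 and 12.2 FPKM against 5.85, 5.20 and 5.49 FPKM and had the smallest p of that list (log2 difference -0.81, 95% interval -1.47 to -0.15; limma, adjusted p = 0.758). Sinusoidal endothelial genes were lower for 17 of 22, 0 called, with a median of -0.23 that was -0.09 without knockout-labelled library 2 and -0.12 without wild-type library 1, which held the highest level of 16 of them. Pecam1, an adhesion molecule of endothelium, was at 8.87, 6.99 and 7.63 FPKM against 6.43, 4.16 and 5.51 FPKM. It was 1 of 2 tested endothelial genes without overlap, both lower, beside 2.75% of all coding genes lower in that manner. Neutrophil genes (10 tested) had a median of -0.01 that was 0.68 without wild-type library 3.

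Hepatocyte metabolism was read through several lists. Lipogenesis and cholesterol synthesis genes were higher for 30 of 39 tested, 0 called, with a median of 0.30 that stayed between 0.16 and 0.43 with any 1 library left out and was 0.02 with libraries scaled to equal sums. Fasn, the fatty acid synthase, was at 51.1, 36.6 and 33.9 FPKM across the wild-type libraries and 84.6, 163 and 40.0 FPKM in the knockout-labelled libraries (log2 difference 1.02, 95% interval -0.11 to 2.15). Lss, the lanosterol synthase, was the only tested member without overlap (beside 4.79% of all coding genes), at 3.88, 6.38 and 6.46 FPKM against 10.8, 8.50 and 6.76 FPKM. Mvd and Mvk of the mevalonate pathway had log2 differences of 0.71 and 0.52 with intervals that included 0. Knockout-labelled library 1 held the highest level of 14 of the 39 genes, against 6.23% of all coding genes. Knockout-labelled library 2 held that of 13, against 33.2% of all coding genes, and knockout-labelled library 3 lay among the wild-type libraries.

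Single enzymes of hepatocytes were also spread widely. Pck1, the phosphoenolpyruvate carboxykinase that commits carbon to glucose, was at 368, 499 and 58.8 FPKM against 116, 36.3 and 65.1 FPKM (log2 difference -1.75, 95% interval -3.32 to -0.19; limma, adjusted p = 0.758). Wild-type library 3 lay with the knockout-labelled libraries. Cyp7a1, the rate-limiting enzyme of bile acid synthesis, was at 30.2, 5.22 and 23.5 FPKM against 1.79, 9.17 and 8.15 FPKM, and Nr0b2, the receptor SHP that represses it, at 15.9, 33.1 and 10.4 FPKM against 48.0, 51.1 and 17.7 FPKM. Both genes overlapped, and the bile acid list had a median of -0.09 (27 tested, 0 called). Fatty acid oxidation genes were higher for 27 of 34, 0 called, with a median of 0.28 that was 0.08 without knockout-labelled library 2 and -0.01 with equal sums. Bdh1, which makes the ketone body 3-hydroxybutyrate, was at 40.6, 46.5 and 43.4 FPKM against 71.4, 89.4 and 51.6 FPKM. It was the only tested member of that list without overlap, beside 4.79% of all coding genes. Hepatocyte identity genes had a median of 0.41 (30 tested, 0 called, 20 higher), which was -0.04 without wild-type library 3 and knockout-labelled library 2 together. Of these genes 2 did not overlap, both higher, beside 2.04% of all coding genes higher in that manner. Circadian clock genes had a median of -0.30 (17 tested, 0 called, 11 lower). Groups did not overlap for 1 clock gene that was higher and 2 that were lower, beside 2.04% and 2.75% of all coding genes. The clock median was -0.05 without wild-type library 1, -0.14 without knockout-labelled library 2 and 0.23 among genes averaging 5 FPKM or more. Nr1d2, a clock repressor, was at 3.06, 3.27 and 7.40 FPKM against 2.87, 1.69 and 2.73 FPKM. The labels give no hour of collection.

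Short housekeeping transcripts moved with knockout-labelled library 2. Cytosolic ribosomal protein genes were higher for 35 of 36 tested, 0 called, with a median of 0.62, but that library held the highest level of 36 of 36 and the median was 0.16 without it. Rps14 was at 176, 264 and 124 FPKM against 281, 966 and 237 FPKM. Nuclear oxidative phosphorylation genes were higher for 34 of 35, 0 called, with a median of 0.48 that was 0.05 without the same library, which held the highest level of 32 of them. Over the 5 length classes of coding genes, the median difference between labels ran from 0.33 in the shortest to -0.21 in the longest, and from 0.11 to -0.06 without that library. The part of gene length or RNA quality in these group medians was not tested.

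**Figure D5:**
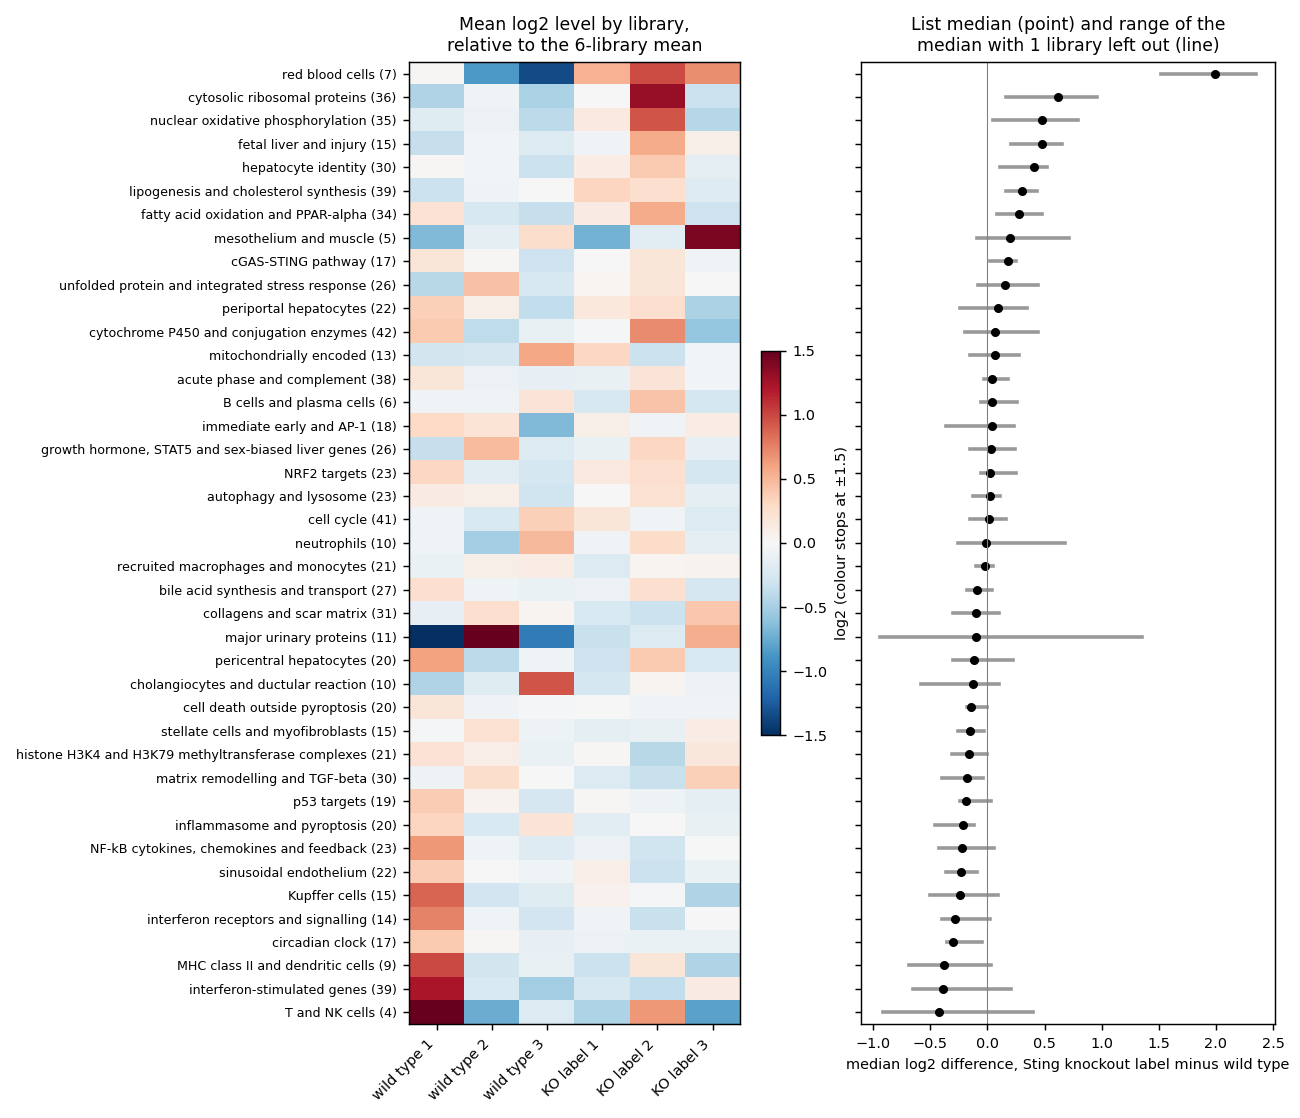
Left, mean log2(FPKM + 1) of the tested members of each gene list in each CCl4 library, relative to the mean of the 6 libraries (red, higher; blue, lower; number tested in brackets). Right, the list's median log2 difference, knockout label minus wild type (point), and the range of that median with each library left out in turn (line); the red blood cell list, at 1.99, has the highest median, and the interferon-stimulated list crosses 0.

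Red blood cell genes formed the list with the highest median. Of 7 tested, 7 were higher in the knockout-labelled libraries, 0 were called, 5 did not overlap (against 2.04% of coding genes higher in that manner), and the median log2 difference was 1.99. It was 1.30 without wild-type library 3 and knockout-labelled library 2 together, and between 1.52 and 2.35 with any 1 library left out. The listed genes summed to 1103, 462 and 278 FPKM against 1902, 3060 and 2056 FPKM, and to 353 to 975.1 FPKM in oil livers. The members were not equally apart. Alas2, the haem synthesis enzyme of red cell precursors, overlapped at 25.6, 41.2 and 11.4 FPKM against 38.7, 36.2 and 37.3 FPKM, and the membrane genes Slc4a1 and Epb42 were at 1.27 and 0.213 FPKM in wild-type library 1 and at most 0.0951 and 0.0194 FPKM in the other 5 CCl4 libraries. Blood held in the tissue was not recorded in the labels, and its part in the globin levels was not tested.

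Markers of tissue next to the liver were also read. Pancreas and adipose markers were at or near 0, with 0 of 13 reaching 1 FPKM. Mesothelial genes were high in knockout-labelled library 3, where Msln and Upk3b were at 32.1 and 18.3 FPKM against at most 7.06 and 5.52 FPKM in the other 5 CCl4 libraries. Of the 10 bile duct genes tested, 0 were called, 7 were lower and 3 higher, and the median of -0.13 was 0.10 without wild-type library 3. That library held the highest level of 5, among them Muc1, Epcam and Cd24a at 8.02, 8.59 and 31.2 FPKM against at most 0.737, 2.03 and 3.90 FPKM in the other 5, and the lowest level of 2. The list summed to 559 FPKM in knockout-labelled library 2, where Ly6d alone was at 278 FPKM, and to 398 FPKM in wild-type library 3. Muc1 was the only tested member without overlap, lower in the knockout-labelled libraries (at most 0.353 FPKM, against at least 0.727 FPKM). Of all coding genes, 4.79% were without overlap.

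Finally, genes beside Sting1 were read, since a knockout made in another strain can carry flanking variants. Within 10 Mb on either side lay 84 coding genes averaging 1 FPKM or more, of which 0 were called and 4 had groups that did not overlap (4.76%, beside 4.79% of all coding genes), 2 in each direction, with a median difference of -0.014. The 4 were Cxxc5 (89 kb from Sting1) and Egr1 (-869 kb), higher, and Ctnna1 (-479 kb) and Ammecr1l (-3950 kb), lower. Cxxc5 was at 14.5, 14.8 and 10.4 FPKM against 22.2, 21.4 and 15.7 FPKM. The tested genes nearer to Sting1 than Cxxc5, from Mzb1 to Ube2d2a, overlapped. Of 4 tested genes known to differ between common inbred strains, 0 were called, 3 were higher and 1 lower, and 2 did not overlap, both higher (2.04% of coding genes were higher in that manner). Their median of 0.60 was 0.19 without knockout-labelled library 2. Nnt, of which the C57BL/6J strain lacks a working copy, was near 0 in all 6 CCl4 libraries. Ide, an insulin-degrading protease, was at 13.9, 14.7 and 17.6 FPKM against 34.2, 24.5 and 23.3 FPKM, without overlap, and at a mean of 33.6 FPKM in oil livers. Alad, the haem synthesis enzyme that forms porphobilinogen, was at 53.3, 50 and 47.3 FPKM against 64.2, 167 and 53.9 FPKM, also without overlap. Wdfy1, an endosomal adaptor, was at 1.14, 3.47 and 2.94 FPKM against 0.982, 0.929 and 1.28 FPKM, so that wild-type library 1 lay with the knockout-labelled libraries.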

How the data were processed

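The authors deposited FPKM per gene with gene lengths in 1 table for the 9 livers, without read counts. Per the submitters' processing notes, HISAT2 2.2.1, featureCounts 1.5.0-p3 and the mm10 build were used, and RNA was extracted with TRIzol, per the labels' protocols. RNA selection and strand are not given in the sources used here. Multiplying FPKM by length and dividing by a constant for each library gave whole reads for 100% of values (within 0.05), 14353483 to 16684832 per library. Libraries were not rescaled beyond the scaling already in the deposited FPKM.

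The labels' genotype and treatment fields gave the groups, and titles the replicate numbers. limma 3.58.1 (R 4.3.3, intensity trend) was fitted to log2(FPKM + 1) over 11687 genes of any kind with a mean of at least 1 FPKM over the 6 CCl4 libraries, oil livers sharing the fit. Tests were two-sided, adjusted by Benjamini-Hochberg, with calls at an adjusted p under 0.05. Intervals are 95% and unadjusted. Members and lists (44 lists, 1046 of 1048 genes matched) were chosen with earlier results of these data known. Named genes are Sting1, the 12 coding genes each way with the smallest p and no overlap of groups (since none was called), up to 4 members of each list with the smallest p, and cGAS-STING and inflammasome members at 1 FPKM or more; other names were chosen after their values were seen. Deviations from the group means had r of 0.189, 0.192 and 0.130 between same-numbered libraries, and -0.176 to -0.017 between the others. Centring on the group means in part fixes these values, and the replicate numbers come from titles. They do not show that the livers were paired. Alternatives were another pseudocount, filter or scaling, the block, robust moderation or no trend, weights per library, a fit of coding genes alone, and each library left out. Voom on recovered reads and leaving out wild-type library 3 with knockout-labelled library 2 were added after seeing the data. Promoters are RefSeq's.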

Additional observations from a re-analysis of the deposited data

How the results depend on the processing

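The count of 0 genes higher held under all 22 alternatives, and that of 0 lower under 20. With no filter on low values 2 genes were lower, the small RNAs Gm22192 and Gm22043, on 2 reads and 1 read in each wild-type library and 0 elsewhere. Leaving out each library gave 0 to 2 lower, the 2 being Trbj1-1 (limma, adjusted p = 0.00291, on 4 and 5 reads) and Gm17622 (0.0311) without wild-type library 2. With the replicate number of the titles as a block, 0 genes were called higher and 0 lower. The share of genes at an unadjusted p under 0.05, 3.24% in the fit reported, was 9.48% under the block and ranged from 1.37% without knockout-labelled library 2 to 12.4% without knockout-labelled library 3. Sting1 kept a negative log2 difference under every alternative run (-0.80 to -0.22). Each of the 24 genes with the smallest p kept its direction wherever it was tested. Since these genes were chosen as not overlapping, leaving out a library or changing the pseudocount could not turn their direction. List medians moved by less than the spread between libraries in 899 of 945 comparisons with an alternative. Those 899 include changes of sign, such as the interferon-stimulated median of -0.39 that was 0.21 without wild-type library 1. The neutrophil median kept its sign in 12 of 22 alternatives. No trend, robust moderation, the block, and a fit of coding genes alone or without oil livers leave each difference unchanged by construction. For list medians and for Sting1, agreement under these alternatives was thus fixed in advance. Count models (edgeR with and without the block, DESeq2) were planned and not run; the deposited unit is FPKM, and the recovered reads were tested with voom (0 higher, 0 lower, 2.81% at an unadjusted p under 0.05) and the block with limma. Depth limits genes near 1 FPKM, where a few reads set the level.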
